A study of Mus musculus with 6 samples.

Results

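The baseline messenger RNA profile of untreated B16F10 cells, a pigmented mouse melanoma line once selected for its spread to the lung, was described from 3 control libraries. The series holds 3 further libraries, whose cells received an extract of tuberose (Polianthes tuberosa), and their counts enter no level below. Every identifier in the deposited table has a count in at least 1 of the 6 libraries. Totals and shares of identifiers therefore depend on the treated libraries too. What all 6 libraries share is the cell line and the method of RNA extraction, on columns, per the labels. The titles call the 3 libraries controls and the matching columns are labelled blank, with no word on a solvent, the culture time or a stimulus of pigmentation. Nor do the labels say whether the replicates were separate cultures. The spread between them may therefore be technical.

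The genes described are the protein-coding identifiers with a mean of at least 1 CPM over the 3 controls, where CPM is the count divided by the library total and scaled to 1000000. There were 11031 of them among 27067 identifiers in the table, which is 69.0% of the 15976 identifiers annotated as protein coding. A gene at or above this mean is called expressed below, and a gene under 0.1 CPM near silent. Because these levels chose the genes and there is 1 group, every level is a description and carries no test. For comparison between genes the counts were also divided by exonic length before the same scaling, which gives TPM. Errors are SDs over the 3 libraries (n = 3). In bulk RNA, fewer cells that express a gene and less RNA per cell cannot be told apart.

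Deposited counts summed to 40129044, 31991473 and 34609536 in control replicates 1, 2 and 3, and protein-coding genes took 98.2% of them in each. A protein-coding gene with 0 counts in the 3 libraries, of which there were 878, could still lie at up to 0.0281 CPM (3 counts of 106730053, counting error only). These 878 have counts in the treated libraries only, since the table holds 0 identifiers without a count in any library. Genes with no count anywhere are thus not among them, nor among the identifiers that shares of expressed genes are taken from. A further 1824 protein-coding genes lay from 0.1 CPM to under 1 CPM, and 2243 had counts but stayed under 0.1 CPM. Just outside the threshold of 1 CPM stood Cables1, Pacsin1 and Gm4353 at 0.9978, 0.9982 and 0.9997 CPM. Just inside stood Tlr2, Bcl3 and Oas1a at 1.0019, 1.0022 and 1.0027 CPM.

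Melanoma arises from melanocytes, the pigment cells that descend from the neural crest. They make melanin inside melanosomes, organelles related to lysosomes, on fibrils of the protein PMEL and with the enzymes tyrosinase, TYRP1 and DCT. The transcription factors SOX10 and PAX3 drive the gene of MITF, a factor which in turn switches on most pigment genes. The hormone receptor MC1R raises cyclic AMP and through it the amount of MITF.

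MITF binds the E-box words CATGTG and CACGTG, so the 250 bases before the start of 4 pigment genes are shown with each CATGTG, or CACATG where it lies on the other strand, in capitals. Of these genes 3 encode the melanin enzymes and Mc1r encodes the receptor upstream of MITF. They were taken from a set of genes whose windows all hold CATGTG. All 4 hold CATGTG on either strand, and no window without it is shown. The sequences are RefSeq, build GRCm38.p6, 5′ to 3′ on the strand of the gene, from chr4:80833963-80834212 (plus strand), chr14:118052247-118052496 (minus strand), chr7:87493513-87493762 (minus strand) and chr8:123406832-123407081 (plus strand).
Tyrp1: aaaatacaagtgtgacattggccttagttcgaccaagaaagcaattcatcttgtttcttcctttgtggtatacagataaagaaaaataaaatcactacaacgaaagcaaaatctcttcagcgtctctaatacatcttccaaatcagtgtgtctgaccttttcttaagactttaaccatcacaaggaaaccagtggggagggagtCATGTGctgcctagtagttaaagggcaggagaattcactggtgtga
Dct: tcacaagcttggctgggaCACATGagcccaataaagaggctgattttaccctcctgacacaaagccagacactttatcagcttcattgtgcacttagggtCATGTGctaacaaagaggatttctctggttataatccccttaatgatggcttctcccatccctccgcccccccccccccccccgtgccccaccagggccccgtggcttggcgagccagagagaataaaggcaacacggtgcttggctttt
Tyr: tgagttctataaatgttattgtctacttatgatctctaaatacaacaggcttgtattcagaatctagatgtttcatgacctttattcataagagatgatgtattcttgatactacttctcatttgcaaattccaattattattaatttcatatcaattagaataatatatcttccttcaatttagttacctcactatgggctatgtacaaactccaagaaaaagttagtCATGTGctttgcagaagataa
Mc1r: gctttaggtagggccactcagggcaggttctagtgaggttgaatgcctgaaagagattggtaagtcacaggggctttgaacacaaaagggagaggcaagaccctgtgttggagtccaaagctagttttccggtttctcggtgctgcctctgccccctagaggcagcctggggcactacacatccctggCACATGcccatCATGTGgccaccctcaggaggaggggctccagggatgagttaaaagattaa
The word begins 46 bases before the start of Tyrp1, at position -46, and at position -21 of Tyr. Dct holds it at positions -232 and -150, and Mc1r at -62 and -51, with the former of each pair on the other strand. Among 14 genes of the list of pigment proteins with a RefSeq window, 7 held the word on either strand, namely Dct, Oca2, Slc24a5, Trpm1, Tspan10, Tyr and Tyrp1. It stood in 13.8% of 27025 genes with a window and in 8.59% of 8833 expressed protein-coding genes with one. The palindrome CACGTG stood in 4 of the 14 genes, in 6.86% of all genes and in 10.2% of the expressed ones. A site can match only 1 of these words. A match is a description of letters, not a bound site.

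The messenger RNA of untreated B16F10 cells was rich in pigment, glycolysis and translation genes. By count, the 10 protein-coding genes of highest mean CPM were mt-Co1, Eef1a1, Gpnmb, Eno1, mt-Cytb, Tyrp1, Dct, Pkm, Pmel and Scd2. Together they took 6.13 ± 0.085% of all counts, and 4 of them, Gpnmb, Tyrp1, Dct and Pmel, encode melanosome proteins. The 20 highest genes took 9.0%, the 100 highest 18.6% and the 1000 highest 49.6%. A total of 197 genes was enough for 25% of the counts and 1019 genes for 50%.

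Per length, the order changed at the top. The mitochondrial gene mt-Co1, for a subunit of cytochrome oxidase, led at 28260 TPM, before mt-Cytb at 15997, the elongation factor gene Eef1a1 at 13062 and mt-Nd1 at 12983 TPM. The ribosomal stalk gene Rplp1 followed at 7906 TPM, and then Tyrp1 and Pmel at ranks 6 and 7. The genes encoded by mitochondrial DNA, 13 in number, took 2.81 ± 0.035% of counts, and 85 genes with a symbol of a cytosolic ribosomal protein took 4.44 ± 0.028%. The 18 pigment genes with a value took 2.42 ± 0.039% and the 35 glycolysis genes 2.63 ± 0.035%. Both of these shares lay below that of the mitochondrial genes in each library.

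Expressed genes were spread over 4 level classes. There were 2053 from 1 to under 10 CPM, 6561 from 10 to under 100 CPM, 2348 from 100 to under 1000 CPM and 69 at 1000 CPM or more. The last 69 genes held 15.8% of counts, and the 2348 below them 53.2%. The median expressed gene stood at 39.4 CPM and 28.1 TPM, and 2417 genes, or 21.9%, reached 100 CPM.

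A total of 691 different genes on 26 lists, grouped by role, was looked up, and 585 had a value. Of the 584 protein-coding ones, 419 were expressed, where 69.0% of all protein-coding identifiers were. The share of genes with a value that were expressed was 97.3% on the list of the tricarboxylic acid cycle, 94.4% for tumour suppressors and 93.9% for oncogenes. It was 49.0% for receptor tyrosine kinases and 32.3% for G protein-coupled receptors. Each count of expressed genes on a list below is to be set beside the 69.0% of all protein-coding identifiers.

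**Figure D1:**
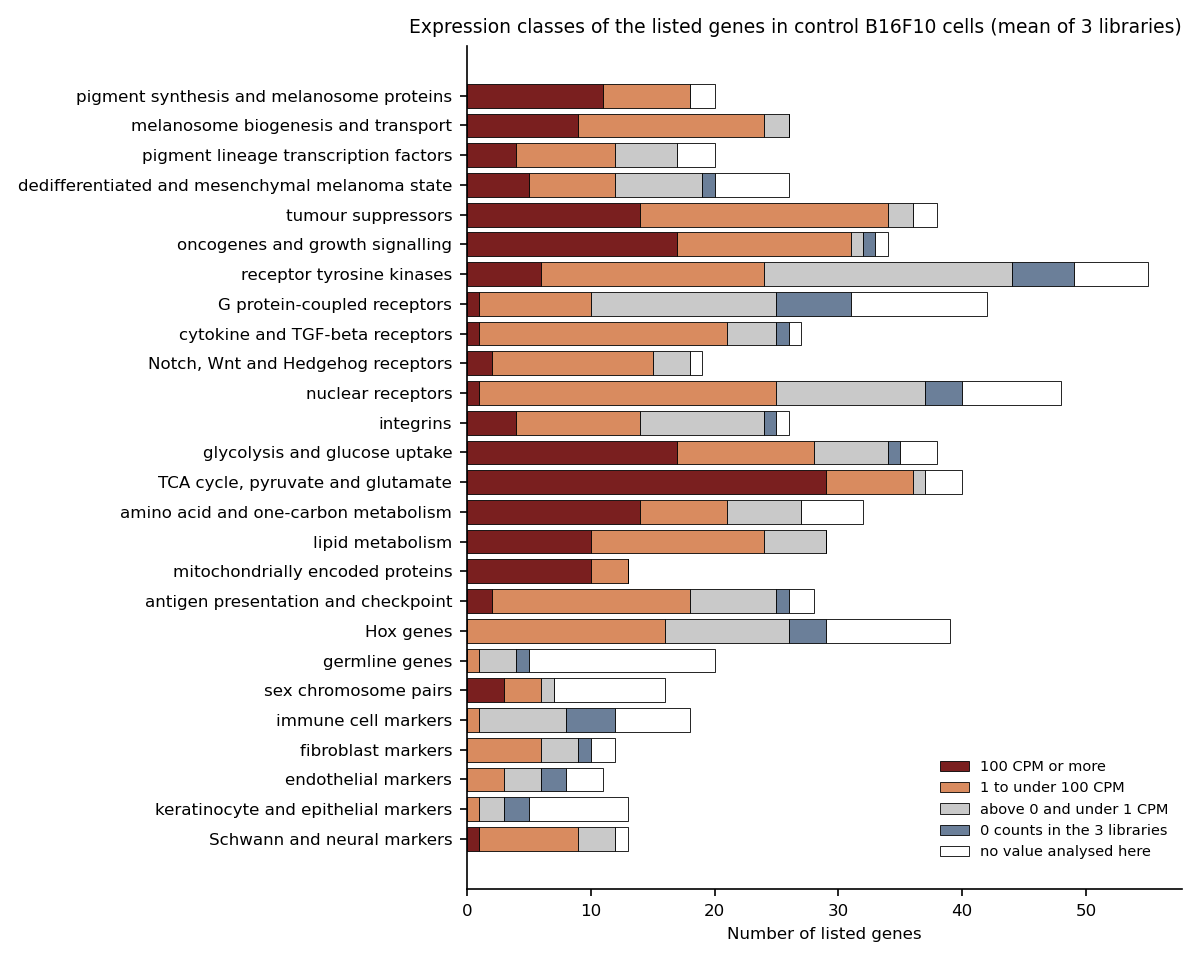
Horizontal bars count the listed genes by mean level in the 3 control libraries, in 5 classes from 100 CPM or more (dark red) to no value analysed here (white), 1 bar per list. The pigment list has no grey or blue segment, while the bar of receptor tyrosine kinases holds 25 of 49 genes with a value below 1 CPM, 5 of them at 0 counts.

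All 18 genes of the list of pigment synthesis and melanosome proteins with a value were expressed, and 11 reached 100 CPM. Their median was 397 TPM, where all expressed genes had a median of 28.1 TPM. Tyrp1 (ENSMUSG00000005994, chromosome 4), for an enzyme of black-brown melanin, measured 6072, 6379 and 6473 TPM in replicates 1, 2 and 3. Pmel (ENSMUSG00000025359, chromosome 10), for the fibril protein of the melanosome, measured 5998, 6222 and 6084 TPM. Replicate 1 was lowest for both, and the levels of the 2 genes overlapped.

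Dct (ENSMUSG00000022129, chromosome 14), for dopachrome tautomerase, measured 2919, 2954 and 2939 TPM. Mlana (ENSMUSG00000024806, chromosome 19), for the melanosome protein also called MART-1, measured 2781, 2813 and 2794 TPM. Both had replicate 2 highest by a small margin, and all 3 libraries of Dct lay above those of Mlana. Gpnmb, for a glycoprotein related to PMEL, stood slightly higher at 3267 ± 42.8 TPM.

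Tyr (ENSMUSG00000004651, chromosome 7), for tyrosinase, which starts melanin synthesis, was far below the other enzyme genes at 322, 341 and 340 TPM. Of the summed TPM of the 3 melanin enzymes, Tyrp1 held 65.8 ± 0.60%, Dct 30.7 ± 0.62% and Tyr 3.49 ± 0.031%. The share of Tyr ranged only from 3.46% to 3.52% across libraries.

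The melanosomal transporter genes spanned a wide range. Slc45a2, for a transporter that keeps the melanosome from acidifying, stood at 775 ± 4.39 TPM and the exchanger gene Slc24a5 at 520 ± 13.7 TPM. Oca2, for a chloride channel of the melanosome, stood at 31.3 ± 0.92 TPM. The lowest genes of the list were Oca2, Mfsd12 at 16.2, Trpm1 at 14.1, Tpcn2 at 12.6 and Slc24a4 at 1.97 TPM. For Asip, which encodes the natural antagonist of MC1R, and for Mchr1 no value was analysed here.

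**Figure D2:**
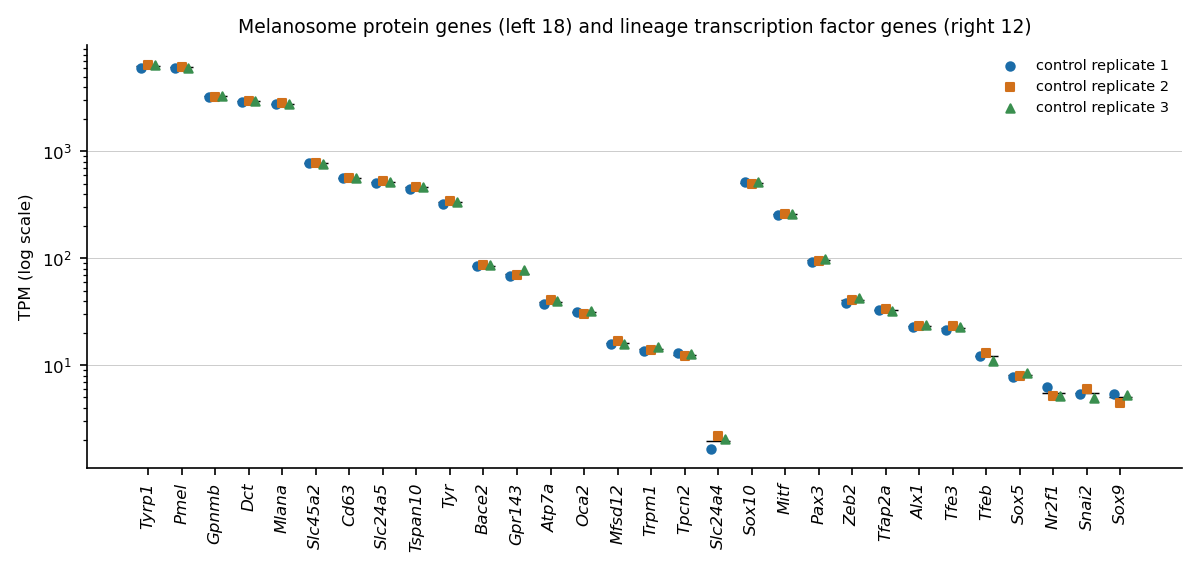
Each point is the TPM of 1 gene in 1 control library on a log axis, with a short line at the mean, for the 18 pigment and melanosome genes (left) and the 12 expressed lineage transcription factors (right). The 5 genes Tyrp1, Pmel, Gpnmb, Dct and Mlana lie between 2781 and 6473 TPM, and the 3 libraries of most genes cannot be separated on this scale.

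Of 26 genes for building and moving melanosomes, 24 were expressed and 9 reached 100 CPM, with a median of 58.7 TPM among those expressed. Rab38, a small GTPase that brings enzymes to the melanosome, held 38.3 ± 0.73% of the list's summed TPM at 1050 TPM. The 3 partners that tether melanosomes to actin were all well expressed, with Mlph (melanophilin) at 284, Myo5a (myosin Va) at 196 and Rab27a at 192 TPM. Dtnbp1, for a subunit of the sorting complex BLOC-1, stood at 117 TPM.

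The genes below the threshold were Bloc1s1, at 0.361 CPM, and Myrip, at 0.0375 CPM. Bloc1s1 encodes another subunit of BLOC-1, and its exons overlap those of Rdh5 on the same strand in the annotation, so its count is uncertain. Myrip encodes a linker of RAB27A to myosin VIIa that serves the retina. Hps6, Rabggta and Bloc1s5 were the lowest expressed genes of the list at 12.9, 12.1 and 13.5 TPM.

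The factors that define the lineage were present in every library. Sox10 (ENSMUSG00000033006, chromosome 15) measured 515, 501 and 512 TPM, and Mitf (ENSMUSG00000035158, chromosome 6) measured 253, 258 and 262 TPM. Pax3 stood at 95.7 ± 2.75 TPM. Replicate 1 was highest for Sox10 and lowest for Mitf, in each case by a few percent. With the other 4 marker genes of pigment cells, Tyrp1, Dct, Pmel and Mlana, they match the label of the line.

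In all, 12 of 17 lineage factors with a value were expressed (70.6%, where all protein-coding genes had 69.0%). After Sox10, Mitf and Pax3 came Zeb2 at 40.6 TPM and Tfap2a at 32.8 TPM, both factors of the neural crest and its melanocytes. Of the family of MITF, Mitf held 88.2 ± 0.45% of the summed TPM, Tfe3 7.69%, Tfeb 4.15% and Tfec 0.0072%. Lef1, Pou3f2, Irf4, Tfap2b and Tfec were below threshold, at 0.284, 0.225, 0.188, 0.0776 and 0.0332 CPM. Irf4 and Lef1 encode factors that act together with MITF in human melanocytes. For Sox2, Foxd3 and Dlx5 no value was analysed here.

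On a list of genes of dedifferentiated and mesenchymal melanoma states, 12 of 20 genes with a value stood at 1 CPM or more. That is 60%, where all protein-coding genes had 69.0%. Vim (vimentin) stood at 1073 ± 6.36 TPM and the matrix gene Sparc at 622 TPM, and these 2 held over 80% of the summed TPM of the list. Nes (nestin) stood at 78.1, Fn1 (fibronectin) at 46.6 and Cdh2 (N-cadherin) at 44.2 TPM. Of the 2 classical cadherins listed, Cdh2 held 98.6 ± 0.32% and Cdh1 (E-cadherin), which joins melanocytes to keratinocytes, 1.43%. Cdh1 was below the threshold on average at 0.997, 0.688 and 0.838 CPM.

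The lowest genes of that list were near silent. Snai1 stood at 0.0417, Nt5e at 0.0401, Fosl1 at 0.0289 and Wnt5a at 0.0166 CPM, and Prrx1 had 0 counts in the 3 libraries. Zeb1, whose rise at the expense of Zeb2 marks dedifferentiated human melanoma, stood at 0.439 ± 0.11 CPM against 233 ± 11.4 CPM for Zeb2. Per length that is 0.148 TPM for Zeb1 and 40.6 TPM for Zeb2. Axl, a receptor of the same human state, was expressed at 25.2 ± 0.61 TPM. For Egfr, Twist1, Twist2, Tnc, Ror2 and Gfra2 no value was analysed here.

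Markers of immune, epithelial and endothelial cells were low or at 0. Of 12 immune cell markers with a value, 1 was expressed (Cd68, a lysosomal protein gene, at 3.16 CPM), and Ptprc, Cd3g, Itgam and Nkg7 had 0 counts. The summed level of the immune markers was 5.41, 5.53 and 5.35 CPM in the 3 libraries. Of 5 keratinocyte and epithelial markers with a value 1 was expressed (Sfn), and Krt14 and Krt18 had 0 counts. Their sum was 2.77 to 3.19 CPM. Of 8 endothelial markers with a value 3 were expressed (Egfl7, Plvap and Vwf), and Kdr and Cdh5 had 0 counts. Their sum was 13.9 to 14.3 CPM. For 6 listed immune, 8 epithelial and 3 endothelial markers no value was analysed here.

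Fibroblast markers were expressed for 6 of 10 genes with a value (60%, where all protein-coding genes had 69.0%). Their sum was 51.3, 56.2 and 57.6 CPM. Pdpn, the podoplanin gene, gave 74.9 ± 3.18% of their summed TPM. The other expressed ones were Pdgfrb at 12.9, Postn at 9.38, Col1a1 at 3.26, Col1a2 at 3.01 and Pdgfra at 2.18 CPM. Lum had 0 counts, and Fap, Acta2 and Col3a1 stood at 0.00831, 0.0193 and 0.122 CPM. The share of these genes that tumour cells themselves express was not tested. Markers of Schwann cells and neurons share the neural crest or neural origin of melanocytes. They were expressed for 9 of 12 genes with a value (75%). Tubb3 stood at 382, S100b at 195, Pmp22 at 52.2 and Fabp7 at 34.8 TPM.

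Tumour suppressor genes were expressed almost throughout. Of 36 with a value 34 were expressed, and 14 reached 100 CPM, with a median of 47.3 TPM among those expressed. Trp53 (ENSMUSG00000059552, chromosome 11), for p53, measured 120, 116 and 115 TPM. Its target gene Cdkn1a, for the inhibitor p21 of cyclin-dependent kinases, measured 277, 274 and 262 TPM and was the highest of the list. In both, replicate 1 was highest and replicate 3 lowest.

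Next to Cdkn1a the highest genes were Cdkn1b (p27) at 127, Trp53 at 117, Cdkn2d (p19 INK4d) at 110 and Nf2 (merlin) at 100 TPM. The lowest expressed genes of the list were Wwox at 4.46, Lats2 at 7.31 and Rasa2 at 10.3 TPM. The genes below the threshold were Cdkn1c (p57), at 0.548, 0.50 and 0.405 CPM, and Fhit, at 0.149, 0.156 and 0.116 CPM.

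No value was analysed here for Cdkn2a or Cdkn2b, the suppressor genes that lie side by side on mouse chromosome 4 and encode p16, p19 ARF and p15. Their close neighbour Mtap (ENSMUSG00000062937, chromosome 4), for an enzyme that salvages methionine and adenine, measured 360, 358 and 348 TPM. Of the INK4 genes with a value, Cdkn2d held 60.7 ± 0.65% of the summed TPM and Cdkn2c 39.3%. Nothing about the state of the genome follows from RNA levels alone.

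Of 33 genes for oncogenes and growth signalling with a value, 31 were expressed and 17 reached 100 CPM. Ctnnb1, for beta-catenin, led at 924 ± 5.40 TPM, before Akt1 at 862, Cdk4 at 338, Ccnd2 at 300 and Rac1 at 268 TPM. The kinase and cyclin families were each used unevenly. Akt1 held 91.2 ± 0.35% of the TPM of the AKT kinases, Cdk4 98.3 ± 0.022% of Cdk4 and Cdk6 together, and Ccnd2 63.7 ± 0.34% of the D cyclins.

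Of the MYC genes, Myc stood at 86.7 TPM, Mycl at 0.160 TPM and Mycn at 0 counts. Tert, for the catalytic subunit of telomerase, was just above the threshold with 87, 38 and 50 counts, or 2.17, 1.19 and 1.44 CPM.

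Receptor tyrosine kinases were expressed unevenly, with 1 gene far above the rest. Of 49 with a value, 24 were expressed (49.0%, where all protein-coding genes had 69.0%), with a median of 6.83 TPM. Met (ENSMUSG00000009376, chromosome 6), for the receptor of hepatocyte growth factor, measured 717, 754 and 751 TPM, with replicate 1 lowest. It held 59.3 ± 0.51% of the summed TPM of the list, between 58.8% and 59.8% in each library. The next genes were the collagen receptor gene Ddr2 at 116, the Wnt co-receptor gene Ryk at 96.4, Ddr1 at 78.3 and Erbb3 at 63.8 TPM.

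Erbb3, for a receptor of neuregulins that matters in the neural crest, held 85.9 ± 0.56% of the ERBB genes with a value, Erbb2 14.1% and Erbb4 0.018%. Among the TAM receptors Axl held 64.6 ± 1.32%, Tyro3 28.7% and Mertk 6.67%. Kit (ENSMUSG00000005672, chromosome 5), for the stem cell factor receptor on which normal melanocytes depend, was low at 136, 124 and 124 counts. That is 3.39, 3.88 and 3.58 CPM or 1.41 ± 0.093 TPM, at rank 10659 of 11031 by TPM. Kdr, Ephb3, Epha8, Epha6 and Ros1 had 0 counts, and for Egfr, Ntrk2, Ror2, Tie1, Ephb1 and Alk no value was analysed here.

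**Figure D3:**
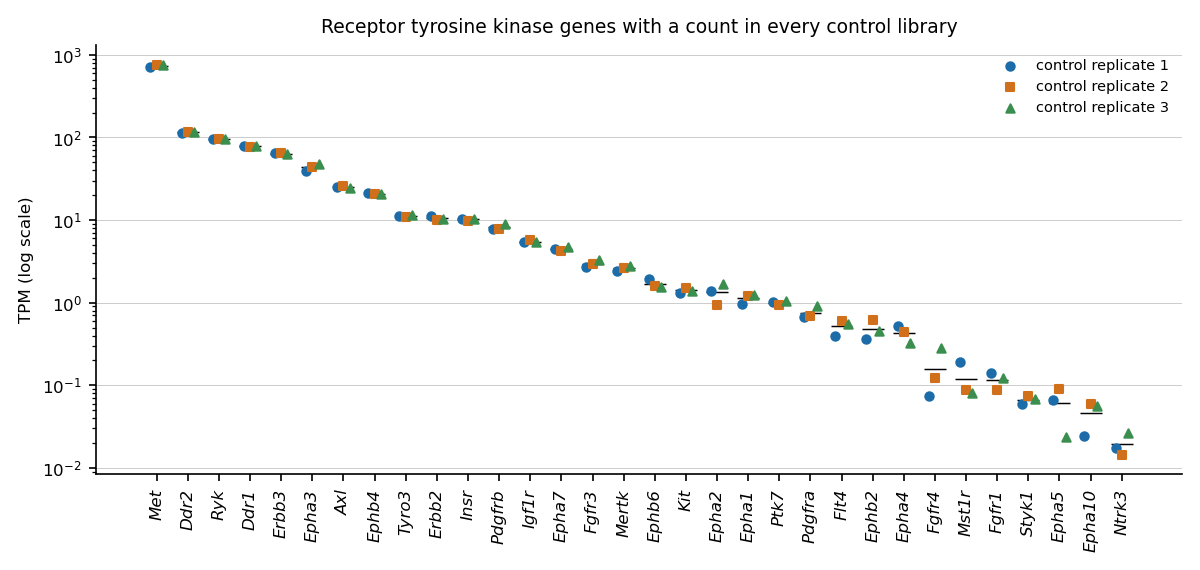
Points give the TPM of each receptor tyrosine kinase gene with a count in every control library, on a log axis, with a short line at the mean of the 3 libraries. Met stands at 717 to 754 TPM, apart from the next gene Ddr2 at 116 TPM, and the libraries scatter more towards the lowest genes.

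G protein-coupled receptors were expressed for 10 of 31 genes with a value. Mc1r (ENSMUSG00000074037, chromosome 8) measured 168, 169 and 163 TPM and held 61.8 ± 1.05% of the summed TPM of the list. Lpar5, a receptor of lysophosphatidic acid, stood at 41.4 ± 4.51 TPM, with replicate 1 highest and replicate 3 lowest. The sphingosine phosphate receptor gene S1pr2 stood at 21.4, the R-spondin receptor gene Lgr4 at 17.4 and Gpr161 at 8.56 TPM. Lpar1, Lpar3, F2r, F2rl1, S1pr5 and Adora1 had 0 counts. The endothelin receptor gene Ednra stood at 0.0776 CPM, and for Ednrb, Cxcr4 and the other melanocortin receptor genes no value was analysed here.

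Receptors for cytokines and the TGF-beta family were expressed for 21 of 26 genes with a value. That is 80.8%, where all protein-coding genes had 69.0%. Tnfrsf1a, for a receptor of tumour necrosis factor, led at 126 TPM, before Ifngr2 at 53.0, Il10rb at 50.9, Ifnar1 at 48.3 and Bmpr1a at 45.5 TPM. The lowest were Il1r1 with 0 counts, Il2rg at 0.0166, Fas at 0.0594, Il6ra at 0.529 and Tnfrsf1b at 0.573 CPM. Genes for receptor chains of type I and type II interferons were thus expressed, while the receptor gene for interleukin 1 had no count.

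Notch, Wnt and Hedgehog receptors were expressed for 15 of 18 genes with a value (83.3%, where all protein-coding genes had 69.0%). Smo led at 80.1 TPM, before Fzd7 at 73.8, Lrp6 at 52.9, Lrp5 at 20.1 and Fzd6 at 19.7 TPM. Integrins were expressed for 14 of 25 genes with a value (56%, against the same 69.0%). Itgb1, the shared beta 1 chain, stood at 499 ± 3.48 TPM and held 59.9 ± 0.46% of the list, before Itga6 at 69.1, Itgav at 68.2, Itgb5 at 57.0 and Itga5 at 39.8 TPM. Itgam, a chain of myeloid cells, had 0 counts.

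Nuclear receptors were expressed for 25 of 40 genes with a value, mostly at moderate levels. That is 62.5%, where all protein-coding genes had 69.0%. Rxra stood at 74.9, Nr1h2 (LXR beta) at 72.3, Nr4a1 at 54.4, Rarg at 51.8 and Nr4a3 at 44.6 TPM. The paired gene of LXR alpha, Nr1h3, stood at 0.0803 TPM and was chosen after its value was seen. Esr2, Nr0b2 and Nr2e3 had 0 counts. Nr1h4, for the bile acid receptor FXR of liver and gut, was expressed at 30.2, 30.0 and 28.9 TPM and was also chosen after its values were seen.

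Glycolysis was carried by a few very abundant messages. Of 35 genes with a value 28 were expressed and 17 reached 100 CPM, with a median of 135 TPM. Pgk1 (phosphoglycerate kinase) stood at 4674 ± 120 TPM, Eno1 (enolase) at 3498 ± 33.7, Aldoa (aldolase) at 3266, Ldha (lactate dehydrogenase) at 3228 ± 52.4 and Pkm (pyruvate kinase) at 3092 ± 45.0 TPM. Of these, Pgk1 was highest in every library. Eno1 has near-identical processed copies in the mouse genome, so its level is uncertain. The level of the glycolysis gene Gapdh, 221 TPM, is uncertain too, with a spread of 54.6% (SD over mean of CPM) between libraries.

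At most steps 1 paralogue supplied the larger share of the messages. Slc2a1 held 83.3 ± 0.44% of the glucose transporter TPM and Slc2a3 12.5%, with Slc2a2 at 0 counts. Hk2 held 71.8 ± 0.83% of the hexokinases and Hk1 28.2%. Aldoa held 98.5%, Pgam1 99.5%, Eno1 97.6% and Ldha 91.5% of their families. Phosphofructokinase was the mixed step, with Pfkl at 52.9 ± 0.15%, Pfkp at 23.9% and Pfkm at 23.3%.

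Lactate export and the gate to the mitochondrion were also shared. Slc16a3 (MCT4) held 58.1 ± 1.47% and Slc16a1 (MCT1) 41.9 ± 1.46% of the lactate transporter TPM. Slc16a3 was the higher of the 2 in every library. Pdk3 held 60.9 ± 0.84% and Pdk1 37.8 ± 0.93% of the pyruvate dehydrogenase kinases with a value. For Pdk4, Pck1, Pklr and Ldhc no value was analysed here.

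**Figure D4:**
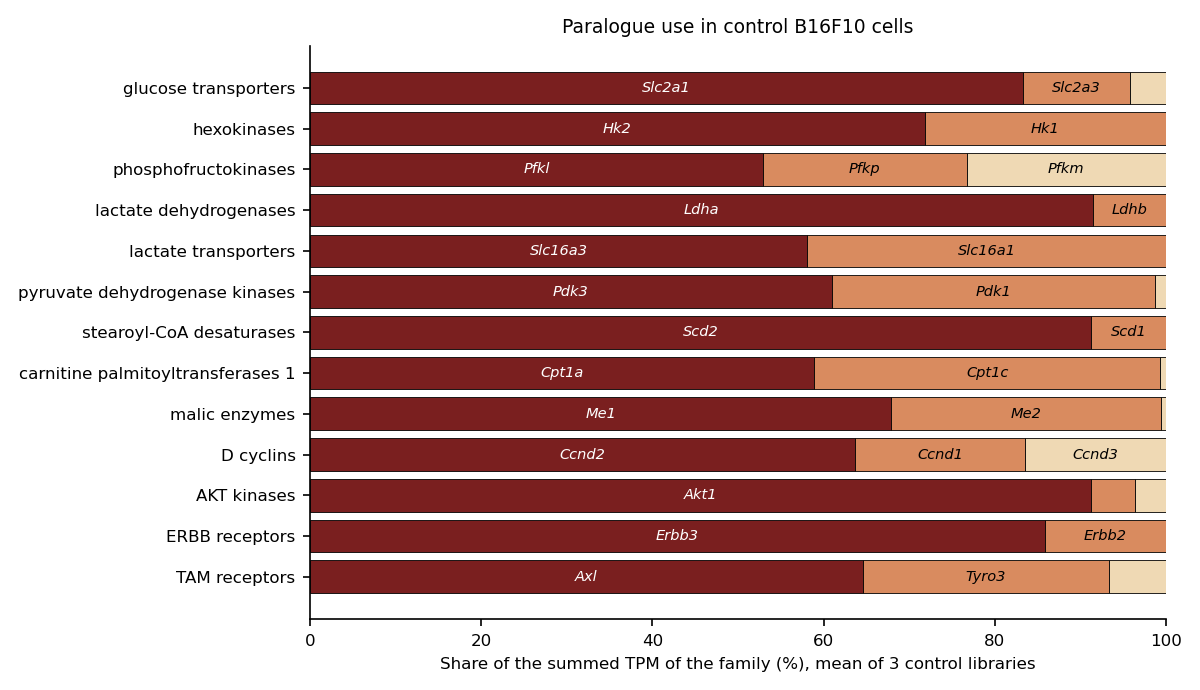
Stacked bars show how the summed TPM of 13 gene families divides among their members, as the mean share of 3 control libraries in percent. In 5 of the families 1 gene takes over 80%, while the phosphofructokinases, lactate transporters and carnitine palmitoyltransferases are split.

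The tricarboxylic acid cycle list, with pyruvate and glutamate enzymes, was expressed for 36 of 37 genes with a value, and 29 reached 100 CPM. Its levels were even: the highest gene, Sdhb, held 7.54 ± 0.11% of the summed TPM, at 509 TPM, before Sdhd at 500, Idh2 at 474, Mdh2 at 467 and Mdh1 at 443 TPM. Of the NADP-dependent isocitrate dehydrogenases, mitochondrial Idh2 held 78.0 ± 0.53% and cytosolic Idh1 the rest. Me1 held 67.9 ± 0.43% of the malic enzymes.

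The 1 gene of that list below the threshold was Nnt, for the transhydrogenase that makes mitochondrial NADPH. It had 41, 40 and 21 counts, or 1.02, 1.25 and 0.607 CPM, with replicate 3 lowest. Replicates 1 and 2 thus lay above 1 CPM and replicate 3 below it. The gluconeogenic gene Pck2, for the mitochondrial PEP carboxykinase, stood at 52.5 TPM.

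Genes of amino acid and one-carbon metabolism were expressed for 21 of 27 genes with a value, with a median of 145 TPM. The highest were Phgdh, of serine synthesis, at 494 ± 17.2, Asns at 466 ± 30.4, and the folate cycle genes Shmt2 at 450 and Mthfd2 at 444 TPM, followed by the transporter gene Slc7a5 at 419 TPM. Asns, for asparagine synthetase, measured 436, 466 and 497 TPM, rank 262 among expressed genes. Its CV of 6.64% was above the median of its list, 2.53%.

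The arginases were below the threshold at 0.149 CPM for Arg2 and 0.103 CPM for Arg1, with Arg2 at 0.361 TPM and Arg1 at 0.160 TPM. The lowest genes of the list by TPM were Tdo2, Mthfd2l, Ido2, Arg1 and Arg2, all under 1 CPM. Cbs, which makes cystathionine, missed the threshold narrowly at 0.797, 1.19 and 0.867 CPM, with replicate 2 above it. For Otc, Cps1, Ido1 and Th no value was analysed here.

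Lipid synthesis was dominated by 1 desaturase. Scd2 measured 2456, 2488 and 2434 TPM and held 91.3 ± 0.17% of the stearoyl-CoA desaturases, against 8.67% for Scd1 at 233 TPM. Scd2 was also the tenth gene by count. Apoe, for apolipoprotein E, stood at 775, Acly (ATP citrate lyase) at 290 and Fasn (fatty acid synthase) at 277 TPM. Of 29 genes 24 were expressed, and Lpl and Cd36 stood at 0.0541 and 0.226 CPM. Cpt1a held 58.9 ± 1.53% of the carnitine palmitoyltransferases 1, and Cpt1c, the form known from brain, 40.3 ± 1.65%.

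All 13 protein genes of mitochondrial DNA were expressed, from 28260 TPM for mt-Co1 to 119 TPM for mt-Atp8. The messages of 1 organelle genome therefore differed in TPM by far more than their spread between libraries. Near-identical nuclear copies of this DNA make these levels uncertain. The light-strand gene mt-Nd6 measured 339, 210 and 303 CPM, with replicate 2 lowest and a CV of 23.4%, where the median of the 13 genes was 2.98%.

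Genes of antigen presentation and immune checkpoints were expressed for 18 of 26 genes with a value. That is 69.2%, close to the 69.0% of all protein-coding genes. The galectin gene Lgals1 stood at 2247 ± 7.78 TPM and held 66.8 ± 0.47% of the summed TPM of the list. B2m, for the light chain of class I molecules, measured 601, 620 and 617 TPM, H2-D1 108, 107 and 110 TPM, and H2-K1 35.3, 38.0 and 44.2 TPM. H2-K1 rested on 1198, 1031 and 1297 counts, was highest in replicate 3 and had a CV of 11.8%. The class I heavy chain genes are near-identical in part, so the split between them is uncertain.

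Genes that process and load the peptides of class I molecules were expressed in part. Tapbp, for tapasin, stood at 26.5, the immunoproteasome gene Psmb10 at 9.34 and the trimming peptidase gene Erap1 at 8.66 CPM. Tap1, for a subunit of the peptide transporter, had 116, 51 and 94 counts, or 2.89, 1.59 and 2.72 CPM. Tap2 and Nlrc5, the latter for the class I transactivator, stood at 0.474 and 0.392 CPM, and Psmb9, of the immunoproteasome, at 0.0733 CPM. Psmb8 had 0 counts, but its exons overlap those of another annotated gene, as do those of Psmb9 with Tap1, so these counts are uncertain. Cd274, for PD-L1, was expressed at 7.81 TPM. Tapbp, Psmb10, Erap1, Tap1, Tap2, Nlrc5 and Cd274 were chosen after their values were seen.

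The 3 libraries were close to each other. The coefficient of variation (CV, the SD over the mean of CPM) had a median of 3.52% over the 11031 genes, where counting error alone would give 2.23%. The median CV fell with level, from 10.5% at 1 to under 10 CPM to 3.57%, 1.90% and 1.26% in the next 3 classes. Counting error would give 6.95%, 2.30%, 1.08% and 0.350% in these classes, so it made up a smaller part of the spread at high levels. The biological coefficient of variation, the spread beyond counting error as edgeR estimates it, was 3.17%.

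Of 8978 genes at 10 CPM or more, 7016 (78.1%) had a CV under 5%, 214 had one of 10% or more and 12 one of 20% or more. Between pairs of libraries 102, 111 and 132 genes differed by over 1.5-fold (replicates 1 and 2, 1 and 3, 2 and 3), and 16, 12 and 26 by over 2-fold, with 0.1 CPM added to each level. Pearson correlations of log2(CPM + 1) across genes were 0.998 for each pair, genes not being independent replicates. The mean chi-square per gene was 3.25 to 3.99 between libraries, above the 1 that repeated counting of 1 library would give, so none was taken for a duplicate. No library stood apart: replicates 1, 2 and 3 were the highest for 3915, 3428 and 3688 genes.

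**Figure D5:**
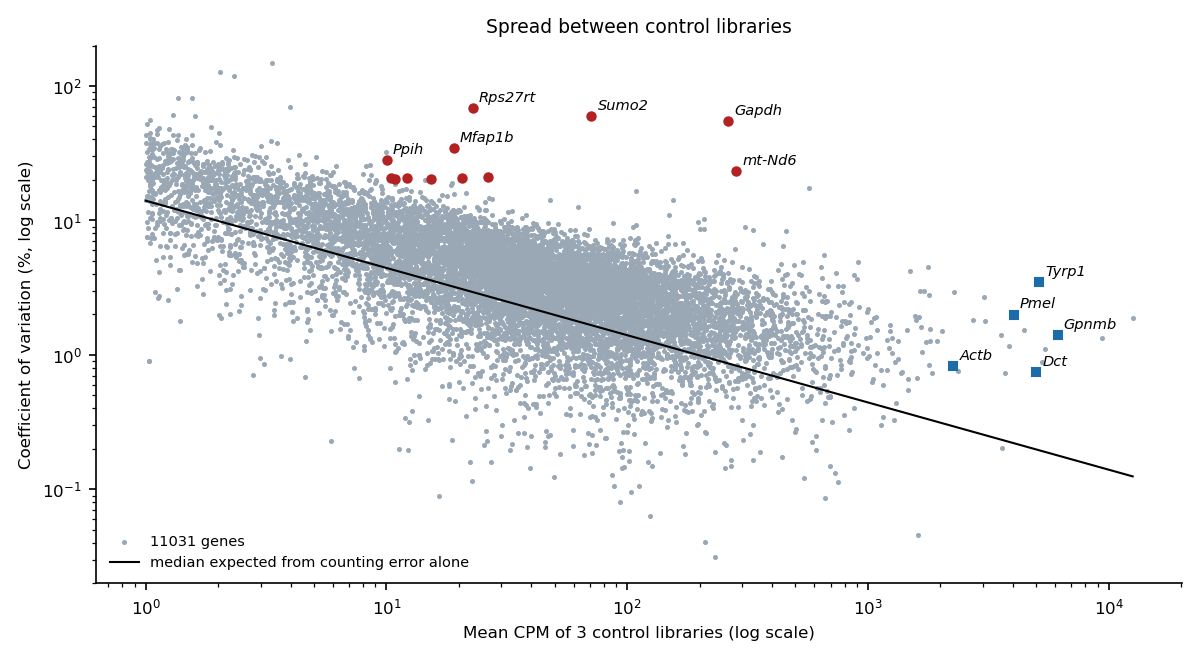
Each dot is 1 of 11031 expressed genes, placed by its mean CPM and its CV over 3 control libraries, both on log axes, with the median expected from counting error as a line. The cloud falls from 10.5% to 1.26% in median CV between the lowest and the highest level class, the 12 red genes at 10 CPM or more lie at 20% or above, and the blue squares mark Tyrp1, Pmel, Gpnmb, Dct and Actb.

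The pigment genes lay on both sides of the median CV of their level class. At 1000 CPM or more, where the median was 1.26%, Dct had a CV of 0.744%, Gpnmb of 1.40%, Pmel of 2.0% and Tyrp1 of 3.47%. At 100 to under 1000 CPM, where it was 1.90%, Slc45a2 had 0.439%, Mlana 0.719%, Slc24a5 2.78% and Tyr 3.28%. Sox10 and Mitf, in the same class, had 1.37% and 1.93%. By list, the median CV of expressed genes was 2.69% for pigment proteins, 2.50% for tumour suppressors, 1.84% for the tricarboxylic acid cycle and 5.52% for receptor tyrosine kinases. The levels of these lists differ too, as given above.

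The 12 genes of highest CV at 10 CPM or more were Rps27rt, Sumo2, Gapdh, Mfap1b, Ppih, mt-Nd6, Srp54c, Dcdc2a, Hacd1, Gm14295, Dynlt1a and Rsph3b, from 68.8% down to 20.2%. Gapdh (ENSMUSG00000057666, chromosome 6), a glycolysis gene often used as a reference, measured 14334, 10667 and 3375 counts, or 357, 333 and 97.5 CPM. Replicate 3 was far below the others, which were close to each other. Sumo2, for a small modifier protein, measured 61.4, 34.4 and 117 CPM, with replicate 3 highest, so the same library was low for one and high for the other.

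Several of these genes have near-identical copies, among which reads cannot be placed with certainty. Summed over 2 copies, Rps27 and Rps27rt had a CV of 6.24%, where the single genes had 14.2% and 68.8%. Summed over 4 copies, Dynlt1 had 5.13% against up to 32.4% for a single copy, and for Mfap1 the sum of 2 copies had 14.0%, between the 5.02% and 34.7% of the single copies. For Srp54 the sum of 3 copies had 17.2%, within the 11.9% to 149% of single copies, and for Rsph3 the sum of 2 copies had 17.7%, where the copies had 20.03% and 20.19%. Gapdh and Sumo2 have processed copies in the genome whose part in these values was not tested. These copy groups were chosen after the values were seen.

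At the other end the 12 genes of lowest CV at 10 CPM or more ran from Rsl1d1 at 0.0314% to Spsb4 at 0.116%, with Dynll2, Rpsa, Scarb1, Pcyt1a, Rpl31, Lrp4, Ccser2, Vps39, Exoc1 and Flna between them. All of these lie below the median that counting error alone gives at their level. Among 12 genes often used as references, a set chosen after values were seen, Sdha, Rplp0, Tubb5, Actb and Ppia had CVs of 0.627%, 0.673%, 0.734%, 0.821% and 1.06%. The widest was Gapdh at 54.6%.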

How the data were processed

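Polyadenylated RNA of B16F10 cells was sequenced by a commercial provider on Illumina instruments, per the labels. The deposited table holds raw read counts per gene under Ensembl identifiers. The submitters' processing notes name fastp 0.22.0, HISAT2 2.2.0 and featureCounts 2.0.6, with a human and a mouse genome build listed without a role. Neither these notes nor the labels give the strand setting, the treatment of reads that map to several places or the annotation release. Counts of overlapping, antisense and near-identical genes are therefore uncertain.

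Columns were matched to samples by the library names in the labels, with 0 columns unmapped. The treated columns were used only to see whether each identifier had a count in some library. GENCODE M21 (GRCm38) gave symbols, biotypes and exonic lengths to 26531 identifiers and none to 536. Because this build is not the listed one, no gene coordinates are printed. Only the promoter windows, from RefSeq, carry coordinates. CPM was computed from column totals and TPM from the union of exons. The dispersion was estimated in edgeR 4.0.16 (R 4.3.3) with TMM factors and an intercept, after a check on simulated counts. Tables and figures were made in Python 3.11.15.

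The genes described and the lists were chosen with earlier results of these data known. Named genes are 15 fixed ones, the 20 of highest CPM and of highest TPM, up to 5 of highest and 5 of lowest TPM per list, all members of listed paralogue families, the 12 of highest and of lowest CV at 10 CPM or more, and 3 on each side of the threshold. Genes named outside this rule, among them Slc45a2, Slc24a5, Zeb1, Cbs, H2-K1, Psmb9, Hoxc4 and Hoxc6, were chosen after their values were seen. A few of the genes covered by this rule are not reported here. Each table value rests on 3 libraries, intervals and floors cover counting error only, and no test was run.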

Additional observations from a re-analysis of the deposited data

How the results depend on the processing

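No paired analysis was possible because only 1 group was described and no result comes from a test. The number of expressed protein-coding genes, 11031, ranged from 11014 to 11034 when 1 library was left out, and was 11544 at 0.5 CPM, 10540 at 2 CPM, 10865 when 1 CPM was required in each library, 11060 with totals without mitochondrial genes, 11077 by TPM, 12462 over all biotypes and 15098 with no filter. With totals without mitochondrial genes the share of the 10 most abundant genes was 6.31% and that of the 100 most abundant 19.1%, by construction, since the total is smaller. The median CV was 3.68% at 0.5 CPM, 3.38% at 2 CPM, 2.99% at 10 CPM and 5.23% with no filter, and 2.78% to 2.97% with 1 library left out, where it rests on 2 values per gene. The biological coefficient of variation was 2.91% to 3.39% with 1 library left out. TMM factors and median-of-ratios factors moved 0 of 640 listed gene levels by over 1 SD, and totals without mitochondrial genes moved 235. Leaving out 1 of 3 libraries also moved 0, but it cannot move a mean by over 1 SD of the 3 values. That count therefore says nothing about how stable the levels are. With the longest transcript as length in place of the union of exons 424 of 640 levels moved beyond 1 SD, and 49 of 609 TPM values by over 1.5-fold (ratios of 0.755 to 2.46), so the order of genes close in TPM depends on that choice. Depth limits values near 1 CPM: Nnt rests on 21 to 41 counts per library.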

Other observations

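Homeobox genes of the Hox clusters record the position of a cell along the body axis. They were expressed for 16 of 29 genes with a value (55.2%, where all protein-coding genes had 69.0%). Hoxb9 measured 59.2, 63.3 and 64.6 TPM and held 34.4 ± 1.34% of the summed TPM, and Hoxa10 stood at 34.4 ± 0.53 TPM. Hoxa5 at 12.9 TPM and Hoxd13 came next, and the other 12 expressed genes stayed under 10 TPM. The 3 Hoxc genes with a value, Hoxc4, Hoxc5 and Hoxc6, were all under 1 CPM, at 0.130, 0.0332 and 0.133 CPM. For Hoxc8 to Hoxc13 no value was analysed here. Of 5 germline genes with a value 1 was expressed, Brdt at 1.73 CPM, and Stk31 had 0 counts.

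Outside protein-coding genes, 188 of 1708 lincRNA identifiers reached 1 CPM. The highest was Gm42047, on chromosome 8, at 722, 723 and 704 CPM, above Neat1 at 420 ± 6.28 CPM and Malat1 at 320 ± 27.0 CPM. The imprinted RNAs H19 and Meg3 stood at 0.0401 and 0.0208 CPM, and Kcnq1ot1 at 18.3 CPM. Processed pseudogenes took 0.655% of counts, with 613 of 3404 identifiers at 1 CPM or more. How far these counts are reads of the genes they copy was not tested.

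The X-linked genes Ddx3x, Eif2s3x, Usp9x, Kdm5c, Zfx and Kdm6a, which have Y-linked partners, were expressed at 790, 191, 268, 94.1, 63.1 and 49.3 CPM. Xist, the RNA of the inactive X chromosome, stood at 0.304 CPM, and for Ddx3y, Eif2s3y, Kdm5d and Uty no value was analysed here. Of 6 identifiers on the Y chromosome, 1 protein-coding gene, Gm47283, reached 1 CPM, at 2.94 CPM.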
